A study of Mus musculus with 9 samples.

Results

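Of the 26358 genes with counts in mouse oocytes, 64 carried the names of eukaryotic translation initiation or elongation factors. They were chosen by symbol alone, as rows beginning with Eif1 to Eif6, Eef1 or Eef2, without the eIF2 kinase genes (Eif2ak) and without names marked as pseudogenes (-ps). The set held 51 initiation factor genes and 13 genes named after elongation factors. The naming is broader than the function in places. Eef1e1 encodes a scaffold protein of the multi-tRNA-synthetase complex, Eef2k and Eef2kmt encode a kinase and a methyltransferase of eEF2, and the Eef1akmt genes and Eef1aknmt encode methyltransferases of eEF1A.

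Initiation factors load the initiator tRNA and an mRNA onto the small ribosomal subunit and find the start codon. eIF4F binds the cap and unwinds the leader, eIF2 brings the initiator tRNA, eIF2B recharges eIF2 with GTP, and eIF3 is the scaffold on which the others assemble. Elongation factors then act at each codon, with eEF1A delivering aminoacyl-tRNA and eEF2 moving the ribosome along. A fully grown oocyte makes little new RNA and depends on stored mRNA that is translated at set times, so that translation factors act on a fixed stock of transcripts.

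The study measured poly(A)-selected RNA from oocytes in 3 groups of 3 libraries each. In cryopreservation-2 the oocytes were frozen in straws in a medium of 17.5% EG and 1 M trehalose that held nanoparticles labelled PVA/Fe3O4/GO. In cryopreservation-1 they were frozen on a cryotop, a thin film strip for minimum volumes, in 15% EG, 15% DMSO and 0.5 M sucrose. Fresh oocytes were not frozen. The labels give no strain, age or meiotic stage, and nothing in them ties a library to separate mice or pools, so p-values measure the spread between these libraries, which may be technical. Carrier, cryoprotectants and nanoparticles differ together between the frozen groups and cannot be told apart. In bulk libraries, fewer cells and less RNA per cell cannot be told apart either. With oligo(dT) selection a lower or higher level cannot be told apart from a shorter or longer poly(A) tail.

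Total counts per library were 49337232 to 51369012 in cryopreservation-2, 64276885 to 80877288 in cryopreservation-1 and 73899130 to 80100460 in fresh oocytes. In each group 1 library had the most genes at 0, namely cryopreservation-2 replicate 1 with 8667, cryopreservation-1 replicate 3 with 8421 and fresh replicate 3 with 9108, and results that rest on them are given with and without them. All 10 oocyte markers examined were detected, at 1.39 to 2.04% of counts over all libraries. Of 12 cumulus and granulosa cell markers, 8 were in the table, at 0.112 to 0.175% of counts in cryopreservation-2, 0.101 to 0.124% in cryopreservation-1 and 0.0936 to 0.124% in fresh oocytes. Of their 6 tested genes, 0 were called in cryopreservation-2 against fresh. Serpine2 gave most of the counts of these markers, with 84883, 80869 and 55504 in cryopreservation-2 and 69481, 94527 and 85128 in fresh oocytes. Cyp19a1 followed, with 3757, 2263 and 1671 in cryopreservation-2 and 5264, 4749 and 4370 in fresh oocytes, before scaling for depth. Of 8 stromal and endothelial markers, 5 were in the table, at 0.0114 to 0.0201% in cryopreservation-2 and 0.00978 to 0.0166% in fresh oocytes, and 2 of the 4 tested were called. Krt8 had 56, 139 and 36 counts in cryopreservation-2, 205, 96 and 122 in cryopreservation-1 and 0, 4 and 0 in fresh oocytes. In cryopreservation-2 and fresh oocytes Myh11 had 2003, 1875 and 2173 against 1752, 1166 and 1465 counts. Dcn had 41, 85 and 4 against 124, 272 and 59, and Pecam1 had 8086, 5325 and 3634 against 6985, 6387 and 10767. All are before scaling for depth. The 6 blood markers in the table made up at most 0.00146% of counts in any library. The part of these cells in the results was not tested.

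Levels between genes are compared as FPKM (fragments scaled to transcript length and library depth). Initiation factor transcripts spanned a wide range of levels. In fresh oocytes 5 of the 51 averaged at least 100 FPKM, 13 lay between 10 and 100, 23 between 1 and 10, and 10 below 1. The 5 were Eif4e3 (456 ± 17.7 FPKM, SD, n = 3), Eif2b1 (266 ± 44.9), Eif5a (262 ± 33.6), Eif1 (214 ± 42.1) and Eif4a1 (115 ± 17.1). Eif4e3 encodes an atypical cap-binding protein, and it alone made up 22.2 to 25.1% of all initiation factor FPKM in cryopreservation-2 libraries, 26.0 to 26.4% in cryopreservation-1 libraries and 23.6 to 25.7% in fresh libraries. Its level exceeded that of Eif4e, the general cap-binding protein, by 10.4 ± 3.53 times in cryopreservation-2, 10.8 ± 1.81 times in cryopreservation-1 and 10.3 ± 1.34 times in fresh oocytes. Eif4e1b, the cap-binding protein best known from oocytes, had 5.82 ± 1.53 FPKM in cryopreservation-2, 5.33 ± 0.613 in cryopreservation-1 and 4.53 ± 1.72 in fresh oocytes.

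None of the 13 genes named after elongation factors reached 100 FPKM in any group, and in fresh oocytes the 13 had a median of 0.513 FPKM, against 4.42 FPKM for the 51 initiation factors. The modifying enzymes lower that median. The 5 genes whose proteins act in elongation themselves (Eef1a1, Eef1b2, Eef1d, Eef1g and Eef2) had a median of 3.23 FPKM in fresh oocytes. The highest in fresh oocytes were Eef1b2 (10.7 ± 3.95 FPKM), an exchange factor of eEF1A, Eef2k (7.75 ± 2.94 FPKM), Eef1e1 (5.49 ± 0.809 FPKM) and Eef2 itself (5.44 ± 2.04 FPKM). Eef1a1, which encodes eEF1A, followed with 3.23 ± 2.90 FPKM. Summed over each class, initiation factor FPKM exceeded elongation factor FPKM by 49.6, 42.2 and 34.2 times in the cryopreservation-2 libraries, by 42.7, 53.3 and 54.8 times in the cryopreservation-1 libraries and by 38.5, 59.5 and 69.5 times in the fresh libraries. These ranges overlapped between all groups. The classes follow names, and Eif5a was summed with initiation although its protein helps ribosomes through difficult peptide bonds. In fresh oocytes Eif5a (262 FPKM) exceeded the sum of all 13 genes named after elongation factors (35.1 ± 10.6 FPKM, SD, n = 3). The size of these ratios thus depends on the naming. Eef1a1 and several other members have near-identical copies elsewhere in the genome, and how reads that match several places were counted is not stated, so the levels of such genes are uncertain.

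**Figure D1:**
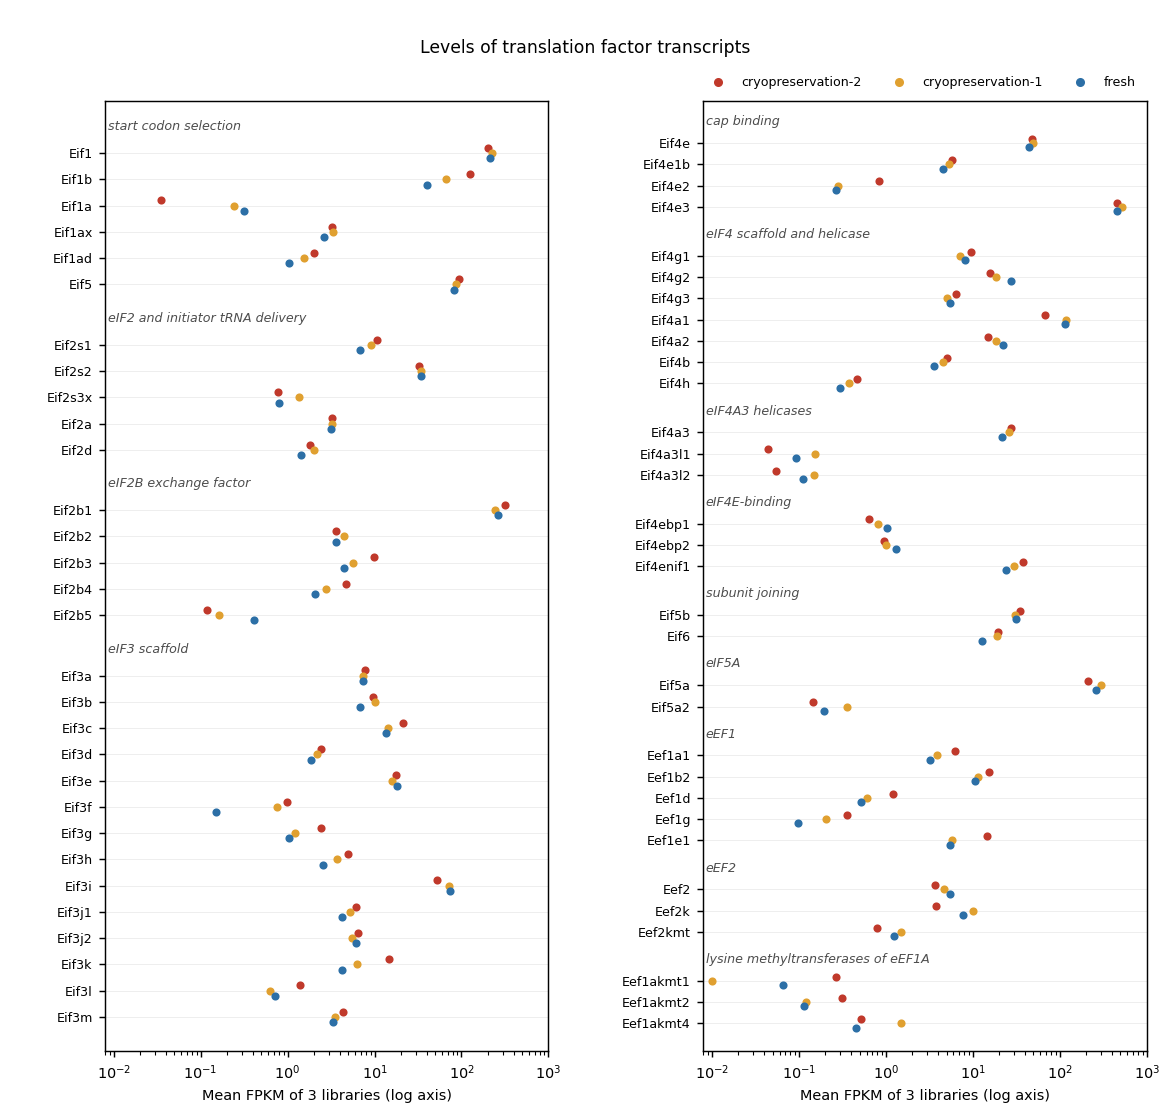
Mean FPKM over 3 libraries (log axis) of the 62 translation factor genes that passed the count filter, in cryopreservation-2, cryopreservation-1 and fresh oocytes, ordered by role; a mean of 0 (Eef1akmt1 in cryopreservation-1) is drawn at the left edge. Eif4e3, Eif2b1, Eif5a and Eif1 lie near or above 200 FPKM in every group, and no gene named after an elongation factor passes 15.6 FPKM.

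Subunits of 1 complex were present at very different RNA levels. Among the 5 genes of eIF2B, Eif2b1 (the regulatory alpha subunit) had 316 FPKM in cryopreservation-2, 244 in cryopreservation-1 and 266 in fresh oocytes, while Eif2b5 (the catalytic epsilon subunit) had 0.120 FPKM in cryopreservation-2, 0.162 in cryopreservation-1 and 0.413 in fresh oocytes. Eif2b5 was listed at 0 in 1 library of cryopreservation-2, 1 of cryopreservation-1 and 2 of fresh oocytes. Among the 14 eIF3 genes, Eif3i was highest in every group, with 52.6 FPKM in cryopreservation-2, 72.5 in cryopreservation-1 and 74.0 in fresh oocytes. The lowest was Eif3f in cryopreservation-2 (0.992 FPKM) and fresh oocytes (0.151 FPKM), and Eif3l in cryopreservation-1 (0.620 FPKM). Within eIF2, the beta subunit gene Eif2s2 had 32.9 FPKM in cryopreservation-2, 34.6 in cryopreservation-1 and 34.5 in fresh oocytes. The X-linked gamma subunit gene Eif2s3x had 0.769 FPKM in cryopreservation-2, 1.36 in cryopreservation-1 and 0.800 in fresh oocytes.

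Cryopreservation-2 was compared with fresh oocytes to ask which factor transcripts differed after straw freezing. Of 62 members that passed the count filter (51 initiation and 11 elongation), 6 were called at an adjusted p under 0.05 in edgeR's quasi-likelihood test with Benjamini-Hochberg adjustment over all genes. Across all 17545 genes tested, 5.38% were called, 3.18% higher and 2.2% lower. The initiation factor genes Eif1b, Eif3k, Eif2b3 and Eif4e2 rose, Eif4a1 fell, and among the elongation factor genes Eef1e1 rose. At an unadjusted edgeR p under 0.05 there were 15 of the 62 members, where 3817 of all 17545 genes were. The median log2 fold change was 0.11 over the 51 initiation genes and 0.84 over the 11 elongation genes, against -0.06 over all tested genes; positive values numbered 29 of 51 and 8 of 11. Without the 3 libraries with the most genes at 0, Eif1b and Eif3k were called and the other 4 were not. Over all genes 194 were called then. Without fresh replicate 3 none of the 51 initiation genes and none of the 11 elongation genes were called, where 231 of all genes were. The initiation median was then 0.05 and the elongation median was 0.40. Without cryopreservation-2 replicate 1 the initiation median was 0.19. With an offset for GC content and length the calls among initiation genes became 4 higher and 4 lower, in place of 4 higher and 1 lower. Eif1, Eif3i and Eif5a were added to the lower side. Over all genes the offset gave 673 higher and 751 lower, in place of 558 and 386.

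Eif1b encodes a close relative of eIF1, the factor that keeps the scanning ribosome from starting at the wrong codon. Its transcript had 83.7, 164 and 130 FPKM in the cryopreservation-2 libraries, 58.4, 70.8 and 69.5 FPKM in the cryopreservation-1 libraries and 37.3, 44.8 and 38.3 FPKM in the fresh libraries. The 3 groups did not overlap, and every cryopreservation-2 library lay above every cryopreservation-1 library, which in turn lay above every fresh one. The log2 fold change of cryopreservation-2 over fresh was 1.50 ± 0.25 (SE), a 2.82-fold rise (edgeR adjusted p = 0.0114). Without fresh replicate 3 the edgeR adjusted p was 0.0506, and over all 21 alternatives it ranged from 5.15e-07 to 0.0506. Eif1 itself did not pass the test, with 143, 215 and 242 FPKM in cryopreservation-2 against 215, 256 and 171 FPKM in fresh oocytes (log2 fold change -0.26 ± 0.23). The ratio of Eif1b to Eif1 FPKM within each library was 0.586, 0.764 and 0.537 in cryopreservation-2, 0.260, 0.288 and 0.358 in cryopreservation-1 and 0.173, 0.175 and 0.223 in fresh oocytes. The ratio showed the same order of groups without overlap. Reads can be shared between such relatives, which leaves both values uncertain to that extent.

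Eif3k, which encodes a peripheral subunit of eIF3, had 11.1, 16.9 and 16.3 FPKM in cryopreservation-2, 6.95, 7.32 and 4.55 FPKM in cryopreservation-1 and 5.20, 4.36 and 3.13 FPKM in fresh oocytes. All cryopreservation-2 libraries lay above all others, and the other 2 groups overlapped. Its log2 fold change over fresh was 1.66 ± 0.29 (SE), or 3.16-fold (edgeR adjusted p = 0.0138, and 0.0522 without fresh replicate 3, within a range of 5.21e-07 to 0.0522 over all alternatives). The other 13 eIF3 genes did not pass the test. Of all 14, 10 had a positive log2 fold change, with a median of 0.37; Eif3h stood nearest to the threshold (0.83 ± 0.28, edgeR adjusted p = 0.118), and Eif3i had the most negative value (-0.66 ± 0.29, edgeR adjusted p = 0.222). Eif3h had 4.56, 5.91 and 4.58 FPKM in cryopreservation-2, 2.90, 4.48 and 3.81 in cryopreservation-1 and 2.65, 2.23 and 2.83 in fresh oocytes, again ordered without overlap. The ratio of Eif3k to Eif3i within libraries was 0.338, 0.275 and 0.257 in cryopreservation-2, 0.0968, 0.0866 and 0.0745 in cryopreservation-1 and 0.0697, 0.0465 and 0.0583 in fresh oocytes. These 3 ranges did not overlap.

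Eif2b3, the gamma subunit that forms the catalytic part of eIF2B together with epsilon, had 11.8, 9.47 and 8.64 FPKM in cryopreservation-2, 5.22, 5.52 and 6.16 FPKM in cryopreservation-1 and 3.72, 5.21 and 4.32 FPKM in fresh oocytes. It was the third member, with Eif1b and Eif3h, whose 3 groups were ordered without overlap. How many of all tested genes were ordered in this way was not counted, so the number of such members has no comparison. The rise of Eif2b3 over fresh was 1.04 ± 0.24 on the log2 scale (SE), or 2.05-fold (edgeR adjusted p = 0.0376). This call held without fresh replicate 2 (0.0361) and was lost when any of the other 8 libraries was left out, at adjusted p-values of 0.0553 to 0.114. Over all alternatives the range was 0.000634 to 0.114. The delta subunit gene Eif2b4 had 3.51, 5.38 and 5.22 FPKM in cryopreservation-2 against 2.43, 2.25 and 1.50 FPKM in fresh oocytes. These libraries did not overlap, yet its log2 fold change of 1.04 ± 0.34 did not pass the edgeR test (adjusted p = 0.106). Eif2b1 had a log2 fold change of 0.11 ± 0.25, and its ratio to Eif2b3 was 33.8, 24.1 and 37.1 in cryopreservation-2, 44.2, 44.5 and 41.4 in cryopreservation-1 and 60.1, 60.1 and 60.6 in fresh oocytes. None of the 5 genes of eIF2 and its alternatives in tRNA delivery (Eif2s1, Eif2s2, Eif2s3x, Eif2a and Eif2d) passed the test, with log2 fold changes of -0.22 to 0.56.

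Eif4e2 encodes 4EHP, a cap-binding protein that does not join eIF4G and is known as a translational repressor. It was a low transcript, with 0.684, 1.06 and 0.742 FPKM (310, 471 and 349 counts) in cryopreservation-2, 0.269, 0.231 and 0.353 FPKM in cryopreservation-1 and 0.247, 0.274 and 0.287 FPKM (170, 186 and 182 counts) in fresh oocytes. All cryopreservation-2 libraries lay above all others. The log2 fold change over fresh was 1.47 ± 0.34 (SE), or 2.77-fold (edgeR adjusted p = 0.0379). The call held without cryopreservation-2 replicate 1 (0.0460) and was lost when any of the other 8 libraries was left out, at 0.0512 to 0.132. Over all alternatives the adjusted p was 0.000904 to 0.132. The other cap-binding members showed small values, -0.02 ± 0.28 for Eif4e, 0.23 ± 0.30 for Eif4e1b and -0.14 ± 0.15 for Eif4e3. Among proteins that bind eIF4E, Eif4enif1 (the eIF4E transporter) had a log2 fold change of 0.54 ± 0.25, and the 4E-BP genes Eif4ebp1 and Eif4ebp2 had -0.82 ± 0.50 and -0.63 ± 0.52; all 3 missed the threshold.

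Eif4a1, the main eIF4A helicase, was the single member that fell. It had 57.2, 80.8 and 63.1 FPKM in cryopreservation-2, 124, 116 and 118 FPKM in cryopreservation-1 and 96.5, 120 and 130 FPKM in fresh oocytes. All cryopreservation-2 libraries lay below all others. The log2 fold change over fresh was -0.93 ± 0.20 (SE), which is 0.526 of the fresh level (edgeR adjusted p = 0.0285). The call was lost when fresh replicate 2 or 3, cryopreservation-1 replicate 1 or 2, or cryopreservation-2 replicate 1 or 3 was left out, at 0.0563 to 0.111. Over all alternatives the adjusted p was 0.000586 to 0.153. A processed copy outside the set, Eif4a-ps4, had 35.4, 46.5 and 37.5 FPKM in cryopreservation-2, 70.3, 59.6 and 76.4 in cryopreservation-1 and 52.3, 57.5 and 67.3 in fresh oocytes. Its log2 fold change over fresh was -0.71 ± 0.20 (SE) and missed the edgeR threshold (adjusted p = 0.0695). As for Eif4a1, all its cryopreservation-2 libraries lay below all others, so how reads were split between the copies bears on both. The second helicase gene Eif4a2 (-0.67 ± 0.24) and the scaffold gene Eif4g2 (-0.91 ± 0.28) had negative values that missed the edgeR threshold (adjusted p = 0.138 and 0.0869), whereas Eif4g1, Eif4g3 and the helicase cofactors Eif4b and Eif4h had values of 0.08 to 0.59.

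Eef1e1 had 12.4, 15.7 and 15.6 FPKM in cryopreservation-2, 5.04, 7.53 and 4.98 FPKM in cryopreservation-1 and 6.26, 5.57 and 4.65 FPKM in fresh oocytes. All cryopreservation-2 libraries lay above all others, and the other groups overlapped. The rise over fresh was 1.27 ± 0.24 on the log2 scale (SE), or 2.41-fold (edgeR adjusted p = 0.0190). It was lost without fresh replicate 1 (0.0517), fresh replicate 3 (0.0734), cryopreservation-2 replicate 2 (0.0580) or cryopreservation-2 replicate 3 (0.0598), and over all alternatives the adjusted p was 4.67e-06 to 0.0734. It was the single elongation member called, and its protein is not itself an elongation factor. The 4 genes of the eEF1 complex proper had positive log2 fold changes that did not pass the test, 0.84 ± 0.54 for Eef1a1, 0.39 ± 0.32 for Eef1b2, 1.09 ± 0.46 for Eef1d and 1.67 ± 1.68 for Eef1g.

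**Figure D2:**
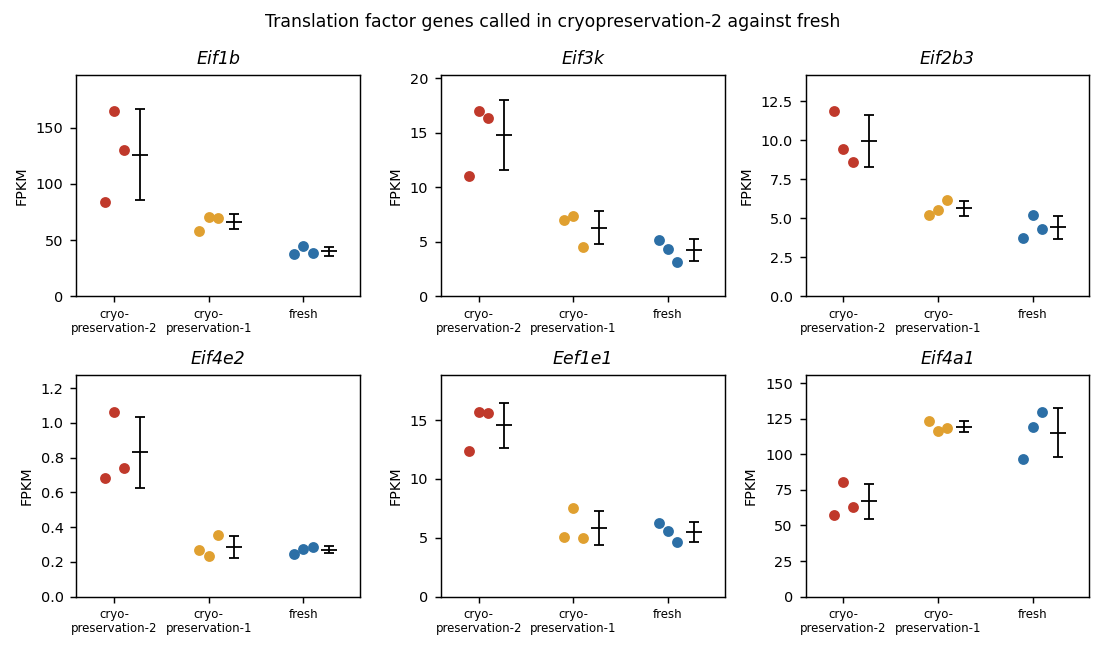
FPKM in each library (points) with the mean and SD of 3 libraries (black) for the 6 called genes, in cryopreservation-2, cryopreservation-1 and fresh oocytes; each axis starts at 0. Eif1b, Eif3k, Eif2b3, Eif4e2 and Eef1e1 are higher in every cryopreservation-2 library than in any other, and Eif4a1 is lower.

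Genes around eEF2 had the opposite sign to those of eEF1, without passing the test in the main edgeR fit. Eef2k, the kinase that inactivates eEF2, had 1.60, 3.85 and 5.77 FPKM in cryopreservation-2, 13.1, 7.58 and 9.66 FPKM in cryopreservation-1 and 11.0, 5.24 and 7.03 FPKM in fresh oocytes. Cryopreservation-2 overlapped with fresh but not with cryopreservation-1. The log2 fold change was -1.19 ± 0.41 over fresh (edgeR adjusted p = 0.118) and -1.53 ± 0.41 over cryopreservation-1 (edgeR adjusted p = 0.0747). DESeq2 called Eef2k lower than in fresh oocytes (adjusted p = 0.0316), and the other 20 alternatives did not. Against cryopreservation-1 it was called lower in 3 of 21 alternatives. These were DESeq2, limma at a minimum mean of 1 FPKM, and the GC content and length offset. Eef2 had 1.49, 3.37 and 6.21 FPKM in cryopreservation-2, 6.28, 3.37 and 4.23 FPKM in cryopreservation-1 and 7.73, 3.81 and 4.79 FPKM in fresh oocytes, with all groups overlapping. Replicate 1 was the lowest library of cryopreservation-2 for both genes and the highest library of the other groups for both. The ratio of Eef2k to Eef2 was 1.08, 1.14 and 0.929 in cryopreservation-2, 2.09, 2.25 and 2.29 in cryopreservation-1 and 1.42, 1.38 and 1.47 in fresh oocytes, and these 3 ranges did not overlap. Eef2kmt had a log2 fold change of -0.80 ± 0.47 over fresh.

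Such ratios were computed for 15 pairs of related factors, and the 4 plotted were picked after their values were seen. In each of the other pairs the ranges of some groups overlapped. Eif1b, Eif3k and Eif2b3 are called genes, so their ratios in part restate those calls. Eif3i, the divisor for Eif3k, had the most negative log2 fold change among the eIF3 genes. All ratios are descriptions with no test.

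**Figure D3:**
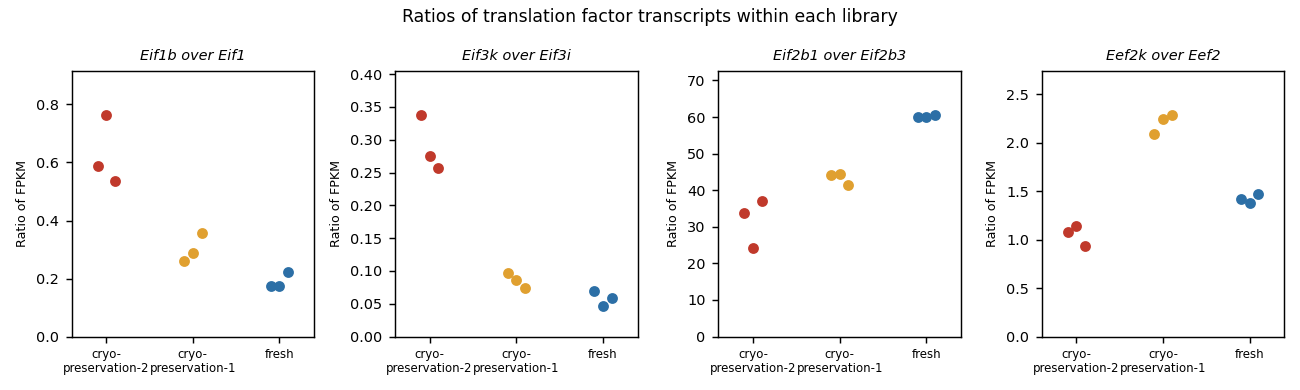
Ratio of FPKM within each library (points) for 4 of the 15 pairs of factors, in cryopreservation-2, cryopreservation-1 and fresh oocytes; each axis starts at 0. In each panel the 3 groups occupy separate ranges, for example 0.537 to 0.764, 0.260 to 0.358 and 0.173 to 0.223 for Eif1b over Eif1.

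Low members carried little information. Eif1a had 0.0262, 0.0778 and 0 FPKM in cryopreservation-2 against 0.283, 0.223 and 0.434 FPKM in fresh oocytes, without overlap, and its log2 fold change of -3.22 ± 1.18 missed the edgeR threshold (adjusted p = 0.140). Eif3f had 0.542, 1.15 and 1.29 FPKM in cryopreservation-2 against 0.0591, 0.393 and 0 FPKM in fresh oocytes (2.48 ± 1.22, edgeR adjusted p = 0.271). Eif1a encodes an eIF1A protein, which helps place the ribosome at the start codon; its relative Eif1ax stood at 3.28 ± 1.44 FPKM in cryopreservation-2 and 2.59 ± 0.607 FPKM in fresh oocytes. The eEF1A methyltransferase genes Eef1akmt1, Eef1akmt2 and Eef1akmt4 were listed at 0 in at least 1 library, and Eef1akmt3 and Eef1aknmt did not pass the count filter. Eef1a2, Eif2s3y and Eif4ebp3 were not analysed here.

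Ranges of FPKM that did not overlap between cryopreservation-2 and fresh oocytes were found for 12 of 62 members on the higher side and 2 on the lower side (Eif1a and Eif4a1), where all tested genes had 17.6% and 9.01%. The higher ones were the 5 called genes with Eif2s1, Eif2b4, Eif3f, Eif3h, Eif3l, Eif4enif1 and Eef1d. For the last steps of initiation the test was not passed, with log2 fold changes of 0.02 ± 0.16 for Eif5b, which joins the subunits, 0.48 ± 0.28 for Eif6, which keeps them apart, and 0.04 ± 0.21 for Eif5, the GTPase activator of eIF2. Eif5a, which helps ribosomes through difficult peptide bonds, had 133, 211 and 286 FPKM in cryopreservation-2 against 230, 297 and 257 FPKM in fresh oocytes (-0.48 ± 0.26).

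**Figure D4:**
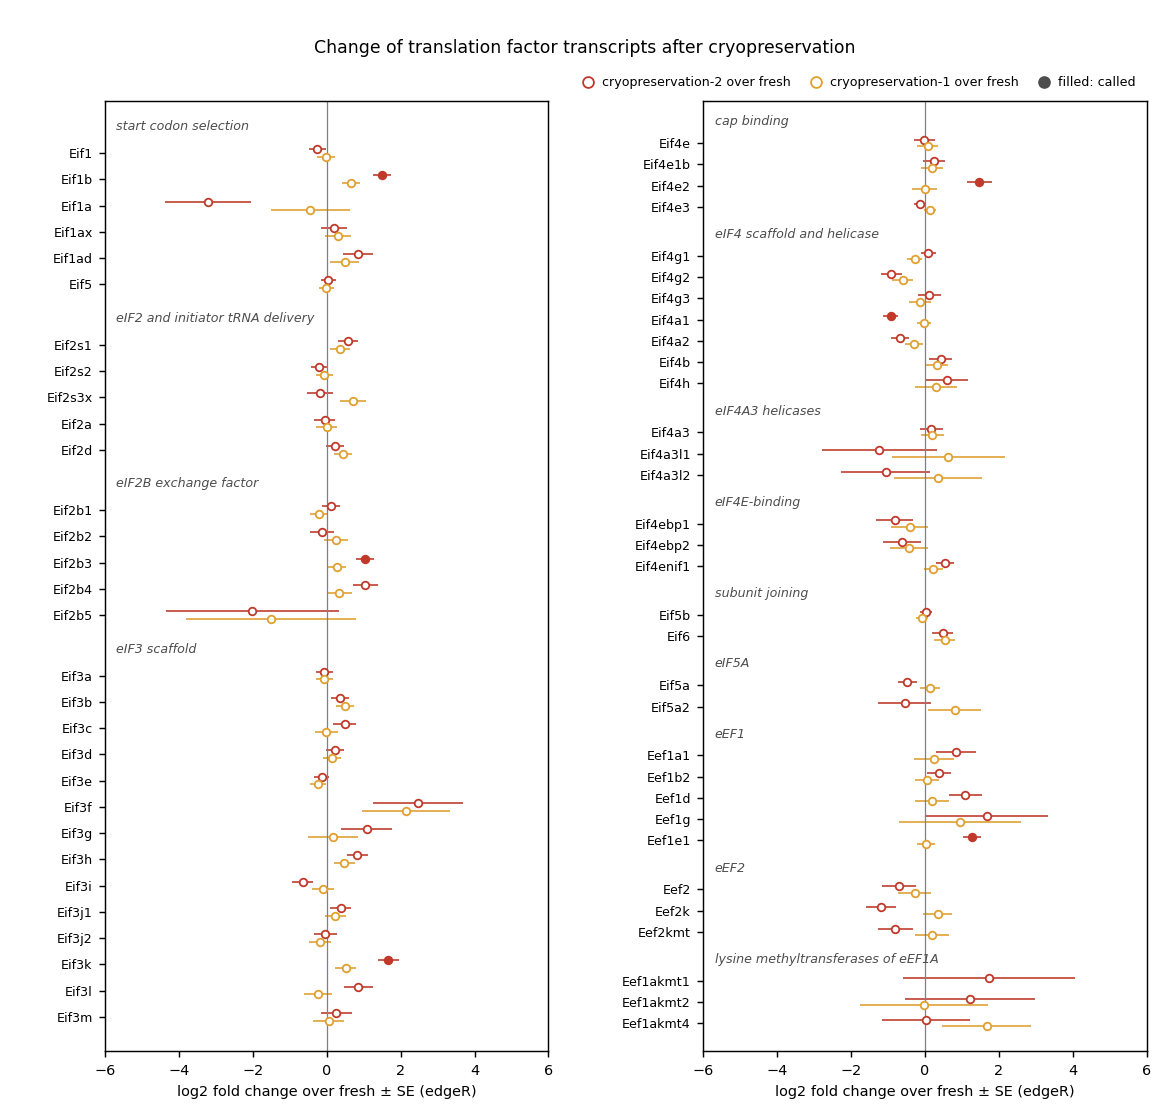
log2 fold change ± SE (edgeR) over fresh oocytes of the 62 tested translation factor genes, for cryopreservation-2 and cryopreservation-1, ordered by role; filled points were called, and Eef1akmt1 in cryopreservation-1, where all 3 libraries were at 0, is not drawn. Filled points are the 6 called genes of cryopreservation-2, from -0.93 for Eif4a1 to 1.66 for Eif3k, and no cryopreservation-1 point is filled.

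Cryopreservation-1 against fresh oocytes gave 0 called members in edgeR, as it gave 0 calls (0%) over all 17545 genes. At an unadjusted edgeR p under 0.05 there was 1 of 62 members, Eif1b, where 828 of all genes were. DESeq2 and limma also called 0 members, where DESeq2 called 43 of all genes and limma 0. Eif1b had a log2 fold change of 0.65 ± 0.24 there. The median log2 fold change was 0.13 over initiation genes and 0.19 over elongation genes, against 0.02 over all genes. The ranges of 8 members lay wholly above fresh and of 0 wholly below, where all genes had 8.14% and 2.63%. These were Eif1b, Eif1ad, Eif2s1, Eif2b3, Eif3f, Eif3h, Eif4e3 and Eif6. The comparison shares its fresh libraries with the one above. For the genes called there, the cryopreservation-1 values over fresh were 0.51 ± 0.28 for Eif3k, 0.27 ± 0.24 for Eif2b3, 0.00 ± 0.34 for Eif4e2, 0.03 ± 0.24 for Eef1e1 and -0.02 ± 0.20 for Eif4a1.

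Set directly against each other, the frozen groups differed in 2 of 62 members, where 2.75% of all genes were called (edgeR, 1.5% higher and 1.25% lower in cryopreservation-2). Eef1e1 was higher in cryopreservation-2 by 1.24 ± 0.24 on the log2 scale (edgeR adjusted p = 0.0292), and Eif4a1 was lower, at -0.90 ± 0.20 (edgeR adjusted p = 0.0434). Eef1e1 lost its call without cryopreservation-1 replicate 1 or 3 or cryopreservation-2 replicate 2 or 3 (0.0719 to 0.138). Eif4a1 lost its call without fresh replicate 3 or any of the 6 frozen libraries (0.0547 to 0.163), with upper-quartile scaling, with RLE scaling and without a count filter, where its adjusted p over all alternatives was 0.00181 to 0.196. Without the 3 libraries with the most genes at 0 neither gene was called (0.105 to 0.196), where 0 of all genes were. Eif4e2 (1.47 ± 0.35, edgeR adjusted p = 0.0521), Eif3k (1.15 ± 0.28, 0.0598) and Eif1b (0.85 ± 0.24, 0.0888) missed the threshold, and with RLE scaling Eif3k and Eif4e2 passed it. Ranges did not overlap for 10 members on the higher side and 9 on the lower side, where all genes had 15.1% and 13.3%.

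Stretches before the RefSeq start of 5 called genes are shown because these are the members whose RNA levels differed. Each is 120 bases long and comes from RefSeq promoter windows on GRCm38.p6; stretches that overlapped a GENCODE exon of the gene were moved until they held none. The Eif1b stretch lies within the annotated span of the gene, between the starts of its annotated transcripts, and is intronic to the longer-reaching one. Capitals mark matches to 4 motifs searched on both strands of the 250 bases before the start: CACGTG (the E-box of factors such as Myc and Usf), CCGGAAG (the site of Ets factors), TGACGTCA (the cyclic AMP response element) and TATAAA (the TATA box). These motifs do not overlap each other in the stretches shown. For Eif2b3 no stretch is shown.
Eif1b, chr9:120492371-120492490, plus strand: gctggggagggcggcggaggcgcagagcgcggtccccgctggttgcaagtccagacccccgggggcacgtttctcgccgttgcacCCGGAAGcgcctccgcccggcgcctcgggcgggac
Eif3k, chr7:28981889-28982008, minus strand: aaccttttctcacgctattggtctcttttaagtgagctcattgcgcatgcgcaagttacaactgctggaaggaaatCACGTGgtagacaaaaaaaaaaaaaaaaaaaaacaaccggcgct
Eif4e2, chr1:87213791-87213910, plus strand: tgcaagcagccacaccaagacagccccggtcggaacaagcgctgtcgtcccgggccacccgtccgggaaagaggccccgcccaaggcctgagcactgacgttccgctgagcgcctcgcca
Eef1e1, chr13:38659059-38659178, minus strand: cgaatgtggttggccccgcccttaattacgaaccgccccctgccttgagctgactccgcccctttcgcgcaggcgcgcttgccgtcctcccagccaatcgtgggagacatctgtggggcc
Eif4a1, chr11:69672424-69672543, minus strand: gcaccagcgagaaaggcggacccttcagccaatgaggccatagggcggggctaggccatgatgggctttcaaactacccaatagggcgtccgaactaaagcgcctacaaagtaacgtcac

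Eif1b held CCGGAAG 150 bases and CACGTG 24 bases before its RefSeq start, the second of them downstream of the stretch shown. Eif3k held CACGTG 44 bases before its start, and Eif4a1 held it 189 bases before, upstream of the stretch shown. Eif4e2 held CCGGAAG in the last of its 3 windows, 23 bases before that start, and Eef1e1 held none of the 4. RefSeq windows were found for 48 of the 64 members. CACGTG occurred in 13 of the 48 (27.1%), against 6.86% of 27025 genes and 7.61% of 17492 protein-coding genes with a window. It was present in 9 of 39 initiation and 4 of 9 elongation members, and the elongation members with it were Eef2, Eef2k, Eef1akmt4 and Eef1aknmt. CCGGAAG occurred in 12 of 48, all of them among the 39 initiation members, against 7.83% of all genes and 10.2% of protein-coding genes. TATAAA occurred in 4 of 48 (8.33%), against 13.7% of protein-coding genes, and TGACGTCA in 0 of 48, against 2.2%. The E-box thus stood before genes that rose, a gene that fell and genes that were not called, and a match in these letters is not a measurement of binding.

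The 6 called genes lie on 6 chromosomes of GRCm38. Eif1b (ENSMUSG00000006941) spans chr9:120492232-120495330, Eif3k (ENSMUSG00000053565) chr7:28971372-28981814, Eif2b3 (ENSMUSG00000028683) chr4:117019402-117087306, Eif4e2 (ENSMUSG00000026254) chr1:87213914-87240488, Eef1e1 (ENSMUSG00000001707) chr13:38644207-38659058 and Eif4a1 (ENSMUSG00000059796) chr11:69666936-69672317.

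Of the genes that control or complete translation without being named as factors, 77 in 7 lists were in the table and 76 were tested. In cryopreservation-2 against fresh 10 of the 76 were called, 5 higher and 5 lower, beside the 5.38% of all genes given above; the median log2 fold change was -0.22. Without the 3 libraries with the most genes at 0, all 10 lost their call, at edgeR adjusted p-values of 0.0588 to 0.111. Over all genes 194 were called then. Among regulators of cap binding and scanning, 3 of 17 rose and 0 fell. Pdcd4, an inhibitor of eIF4A, had 10.6, 7.43 and 6.91 FPKM in cryopreservation-2 against 1.25, 2.50 and 3.56 FPKM in fresh oocytes (log2 fold change 1.63 ± 0.38, edgeR adjusted p = 0.0377). Paip2, a repressor that binds poly(A)-binding protein, rose by 1.55 ± 0.32 (edgeR adjusted p = 0.0246), and Dhx29, a helicase of the scanning ribosome, by 1.04 ± 0.21 (0.0247). Pdcd4 lost its call when any 1 of the 9 libraries was left out (0.0513 to 0.0789), Paip2 without fresh replicate 2 or 3 or cryopreservation-2 replicate 3 (0.0592 to 0.0751), and Dhx29 without fresh replicate 1 or 3 or cryopreservation-2 replicate 2 or 3 (0.0610 to 0.0920).

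Release and recycling factors split. Abce1, the ATPase that separates ribosomal subunits after termination, had 0.279, 0.639 and 0.313 FPKM in cryopreservation-2, 1.22, 1.71 and 1.45 FPKM in cryopreservation-1 and 1.64, 1.99 and 2.53 FPKM in fresh oocytes. All cryopreservation-2 libraries lay below all others. Its log2 fold change over fresh was -2.46 ± 0.37 (edgeR adjusted p = 0.00916) and kept its call without each library in turn, up to an adjusted p of 0.0438, but not without the 3 libraries with the most genes at 0 together (0.0708). Gspt2, which encodes the release factor eRF3b, rose by 0.89 ± 0.18 (edgeR adjusted p = 0.0244), a call lost without any 1 of the fresh libraries, cryopreservation-1 replicate 1 or cryopreservation-2 replicate 2 or 3 (0.0507 to 0.0859). The other 10 of this list of 12 did not pass the test.

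Of 16 genes of mTOR and MAPK control, 1 rose and 2 fell. Deptor, an inhibitor of mTOR, had 8.29, 14.6 and 11.0 FPKM in cryopreservation-2, 42.6, 33.9 and 39.5 FPKM in cryopreservation-1 and 36.3, 22.3 and 26.3 FPKM in fresh oocytes, without overlap between cryopreservation-2 and either. Its log2 fold change over fresh was -1.45 ± 0.23 (edgeR adjusted p = 0.0108, and 0.0550 without cryopreservation-2 replicate 3). Ppp2ca, a catalytic subunit of phosphatase 2A, rose by 2.11 ± 0.50 (edgeR adjusted p = 0.0394), and Mknk1, a kinase of eIF4E, fell by 0.80 ± 0.20 on the log2 scale (edgeR adjusted p = 0.0473). Ppp2ca kept its call without fresh replicate 1 (0.0205) and lost it without any other library (0.0591 to 0.104); Mknk1 lost it without any 1 of the 9 (0.0543 to 0.138).

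Among 8 genes of eIF2 phosphorylation, Eif2ak1, the haem-regulated eIF2 kinase, had 10.6, 18.6 and 18.4 FPKM in cryopreservation-2 against 29.8, 27.3 and 24.3 FPKM in fresh oocytes (log2 fold change -0.92 ± 0.23, edgeR adjusted p = 0.0471). That call was lost without any 1 of the 9 libraries (0.0661 to 0.115), and the other 7 were not called. Of 8 tested selenocysteine and diphthamide genes, Dph6, an enzyme of the diphthamide modification of eEF2, fell by 1.17 ± 0.24 on the log2 scale (edgeR adjusted p = 0.0238), a call lost without fresh replicate 2 or 3 or cryopreservation-2 replicate 2 or 3 (0.0513 to 0.0794). None of the 4 hypusine genes, which modify eIF5A, and none of the 11 mitochondrial translation factor genes were called. In cryopreservation-1 against fresh 0 of the 76 were called in edgeR. Between the frozen groups 7 of 76 were called, beside 2.75% of all genes: Dhx29, Ppp2ca and Dph5 were higher in cryopreservation-2 and Ppp1cc, Abce1, Cpeb1 and Deptor were lower. Of these, Ppp2ca had the largest difference in size, with 12.4, 10.1 and 6.83 FPKM in cryopreservation-2 against 0.688, 0.843 and 0.562 FPKM in cryopreservation-1 (log2 fold change 3.75 ± 0.54, edgeR adjusted p = 0.0121); it lost the call without cryopreservation-1 replicate 1 or 3 (0.0711 and 0.0728). Each of the other 6 also lost its call when 1 of several libraries was left out, the highest adjusted p being 0.186 for Cpeb1. Without the 3 libraries with the most genes at 0 all 7 lost their call (0.0633 to 0.155), where 0 of all genes were called.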

How the data were processed

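Poly(A)-selected RNA was made into strand-marked, PCR-amplified libraries without molecular identifiers, per the labels' protocols. Reads were handled with cutadapt 1.9, HISAT2 2.0.4 and StringTie 1.3.4d on GRCm38, per the submitters' processing notes; how reads were counted, whether by strand, and with which annotation is not given in the sources used here. For all 9 libraries the authors deposited raw read counts and FPKM per gene. Without a known strand setting, reads from overlapping genes cannot be told apart.

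Counts were tested with edgeR 4.0.16 in R 4.3.3 (TMM scaling, filterByExpr at 10 counts and 15 in total, quasi-likelihood fit over all 9 libraries, adjustment over 17545 genes), and called at an adjusted p under 0.05. The script was tested on simulated data. SE is the log2 fold change over the root of F. FPKM, with SD over 3 libraries, gives levels. Named were all called members, those nearest the threshold and the main subunits by role. Members, gene lists and motifs were chosen with earlier results of these data known. Libraries of 1 group differed by 78.1 to 297 times counting error (chi-square per degree of freedom), so none was deposited more than once within its group. Pairs across groups were not compared in this way. Alternatives used DESeq2 1.42.0, limma 3.58.1 on log2(FPKM + 1) or with 0.1 added, other scalings and filters, a GC content and length offset (GENCODE M21 transcripts) and libraries left out. The depth (49337232 to 80877288 counts) leaves genes with few counts imprecise.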

Additional observations from a re-analysis of the deposited data

How the results depend on the processing

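In cryopreservation-2 against fresh oocytes, 5 initiation genes were called, where 944 of all genes were. Below, calls over all genes under the same setting stand in brackets. The number was 9 with DESeq2 (2471), 8 with limma on log2(FPKM + 0.1) (1654) and 8 with the GC content and length offset (1424). It was 2 with the 2 groups alone (429), 2 with the replicate number as a block (500), and 0 to 3 with 1 library left out (231 to 786). Without the 3 libraries with the most genes at 0, an alternative chosen after seeing the data, it was 2, Eif1b and Eif3k (194). For the elongation genes 1 was called, 2 with DESeq2, 0 without those 3 libraries, and 0 to 1 with 1 library left out. Between the frozen groups 1 initiation gene was called, where 483 of all genes were. The number was 2 with RLE scaling (484), 0 with upper-quartile scaling (444), 0 without a count filter (350) and 6 with DESeq2 (1892). It was 3 with limma on log2(FPKM + 1) (1175), 2 with 0.1 added (1010) and 4 with a minimum mean of 1 FPKM (1271). It was 5 with the GC content and length offset (904) and 0 with the block (230). Without the 3 libraries it was 0 (0), and with 1 library left out 0 to 1 (15 to 480). For elongation genes there it was 1, then 2 with DESeq2, 2 with limma at a minimum mean of 1 FPKM, 2 with the offset, 0 without the 3 libraries and 0 to 1 with 1 left out. The initiation median of 0.11 was 0.05 to 0.19 with 1 library left out. The elongation median of 0.84 was 0.23 with limma on log2(FPKM + 1), which shrinks low genes by construction, 0.10 with the minimum mean, which tests 6 genes, and 0.40 to 0.88 with 1 library left out. No gene called in the main fit changed the sign of its log2 fold change in any alternative. The genes called did change. Between the frozen groups the initiation call was Eif4a1, lower in cryopreservation-2. With RLE scaling the calls were Eif3k and Eif4e2, both higher, and without cryopreservation-2 replicate 1 the call was Eif1b, higher. Same-numbered libraries did not deviate together more than others did. Their correlations were -0.12 to 0.12, 1 of 9 over 0.1, against -0.09 to 0.13, 2 of 18 over 0.1, for other pairs. Weak correlations cannot show that libraries were unpaired. Those over 0.1 were the correlations among the 3 libraries with the most genes at 0. For the other moves the cause was not tested. Depth limits members below 1 FPKM.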
